A study of Mus musculus with 20 samples.

Results

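The genes described here are those of glycolysis, the neighbouring pentose phosphate pathway and the uptake of glucose, lactate, amino acids and iron, together with the regulator Hif1a. They were 35 genes chosen by name out of 20886 genes with a named probe on the array. For each gene the probe with the highest mean signal was used, and a gene counted as measured where the scanner marked that probe as well above background in 4 or 5 arrays of some site. By this filter 32 of the 35 were measured, of 8057 genes measured in all.

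The RNA came from donor CD8+ effector T cells of mice with acute graft-versus-host disease, a disease in which transplanted T cells attack the tissues of the recipient. The recipients were female mice of the C57Bl/6 m-act OVA line, 8 to 16 weeks old, whose CAG-OVA transgene puts ovalbumin under the CAG promoter, active in nearly all cells. They received 11 Gy of total body irradiation in split doses, then 3000000 bone marrow cells and 15000000 splenocytes of OT-I donors (TcraTcrb transgenic C57BL/6 mice), whose CD8+ T cells carry 1 transgenic receptor for an ovalbumin peptide. The OT-I T cells carried CD45.1, and recipients and all other grafted cells carried CD45.2. On day 4 the CD45.1+ cells were isolated from peripheral blood and from 3 organs (liver, lung and small intestine) with magnetic beads, and RNA of each site was hybridised to 5 one-colour Agilent arrays after 2 rounds of linear amplification. By their labels the 4 groups shared transplant, genotype and day and differed by site. Blood served as the reference, and no resting T cells entered the comparisons. Marker genes of other cells also differed between the samples, as given below. The labels do not say whether the 5 arrays of a site came from separate mice, and p-values therefore measure the spread between these samples.

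Activated CD8+ T cells take up much glucose through the transporters Slc2a1 and Slc2a3 and break it down by glycolysis, largely to lactate, which leaves the cell through monocarboxylate carriers. The hexokinases trap glucose in the cell, the phosphofructokinases commit it to glycolysis, and the pentose phosphate branch makes NADPH and ribose for growth. Amino acids enter through carriers such as the pair of Slc7a5 and Slc3a2, and Hif1a is a transcription factor known to raise many of these genes.

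Signal on each array was log2 of the processed intensity minus that of the array's 75th percentile, so that 0 is the level of the 75th percentile, and all levels and differences below are on this log2 scale. The share of probes well above background ranged from 22.6% to 38.7% over the 20 arrays. Cd3e, Cd8a and Cd8b1, subunits of the T cell receptor complex and of CD8, were well above background on all of them. Of 15 listed CD8 T cell genes, these included, 13 to 15 were well above background on each array. Cd247, also a subunit of the receptor complex, was so on 1 lung array alone. Cd27 was so on 3 blood, 5 liver, 5 lung and 1 small intestine arrays. The mean of 15 CD8 T cell genes was 4.34 to 4.71 over the blood arrays, 4.54 to 4.75 over those of liver, 3.12 to 4.88 over those of small intestine and 4.02 to 4.59 over those of lung. Genes of other cells were also found. The mean of 10 alveolar macrophage genes was -2.50 to -1.22 in blood but 2.70, 2.46, -1.62, 4.90 and 3.89 on lung arrays 1 to 5. Of 7 Paneth cell genes, which mark the intestinal crypt, the mean was 4.24, 5.37, 0.945 and 6.23 on small intestine arrays 1 to 4. It was -3.35 on the array labelled small intestine 5 and 2.49 on the array labelled liver 5, while the other liver arrays lay between -2.55 and -2.16. These 2 arrays went against their labels and are called the 2 arrays in doubt. For liver and small intestine, most differences of members from blood and the main counts of called genes are given with and without them. All other values use all arrays unless stated. Of 11 monocyte and macrophage genes the mean was 2.01 and 2.43 on small intestine arrays 1 and 2, where 9 were well above background, and between -3.14 and -0.47 on the other 18 arrays. Of 9 neutrophil genes it was 2.26 on liver array 4 and at most 0.96 elsewhere. Lung epithelium genes (9 with a probe) reached 1.47 on lung array 2, with 1 to 7 above background on the lung arrays and 1 or 2 on those of blood. Endothelium genes (10 with a probe) lay between -0.17 and 1.50 in lung and between -1.18 and -0.03 in blood. Of 8 erythroid genes the mean was -0.135 on lung array 3, where 3 were well above background, and at most -1.147 on the other arrays. What part these cells have in the differences below was not tested. In bulk RNA, fewer T cells in a sample and less RNA per T cell cannot be told apart.

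**Figure D1:**
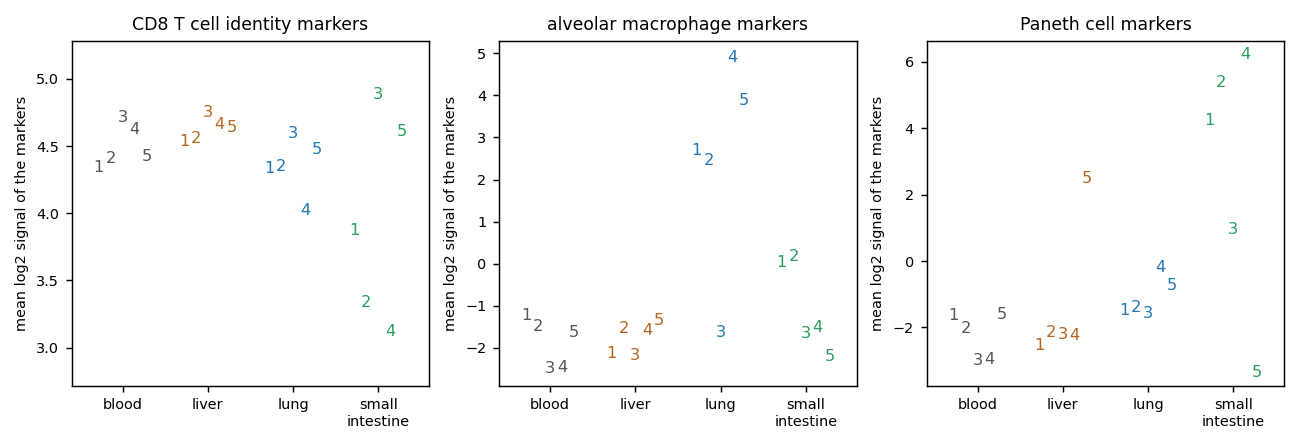
Mean log2 signal of 15 CD8 T cell genes (left), 10 alveolar macrophage genes (middle) and 7 Paneth cell genes (right) on each array, by site; each digit is the replicate number of 1 array. Alveolar macrophage genes are high on lung arrays 1, 2, 4 and 5 and not on lung 3, and Paneth cell genes are high on small intestine arrays 1 to 4 and on the array labelled liver 5.

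The promoters of 4 members that the results below turn on are shown first. Hk2 and Slc3a2 had the lowest p-values between small intestine and lung, and Pfkl had the largest difference between lung and blood. Ldha had nearly equal means at all sites by its brightest probe, though its other measured probe was lower than blood in lung and small intestine. The 4 were chosen after their values were seen. Capitals mark the letters ACGTG, a form of the core to which Hif1a binds with its partner, searched on both strands. Capitals also mark the overlapping longer forms CACGTG, an E-box, and GACGTG. Forms of the core without ACGTG were not searched. Each sequence is the 250 bases before the gene's start, 5′ to 3′ on the gene's strand, from RefSeq on GRCm38.p6. They lie at chr6:82774455-82774704 (minus strand) for Hk2, chr19:8713898-8714147 (minus) for Slc3a2, chr7:46845554-46845803 (plus) for Ldha and chr10:78009808-78010057 (minus) for Pfkl.
Hk2: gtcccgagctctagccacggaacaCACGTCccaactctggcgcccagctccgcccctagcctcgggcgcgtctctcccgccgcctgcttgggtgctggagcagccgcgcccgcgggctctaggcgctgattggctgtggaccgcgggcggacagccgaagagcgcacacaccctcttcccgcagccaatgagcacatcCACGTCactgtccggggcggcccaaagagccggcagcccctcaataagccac
Slc3a2: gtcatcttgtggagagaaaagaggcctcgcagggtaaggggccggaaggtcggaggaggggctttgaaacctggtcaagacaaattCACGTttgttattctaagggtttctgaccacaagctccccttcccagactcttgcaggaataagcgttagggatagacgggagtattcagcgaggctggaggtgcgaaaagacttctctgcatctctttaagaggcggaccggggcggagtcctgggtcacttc
Ldha: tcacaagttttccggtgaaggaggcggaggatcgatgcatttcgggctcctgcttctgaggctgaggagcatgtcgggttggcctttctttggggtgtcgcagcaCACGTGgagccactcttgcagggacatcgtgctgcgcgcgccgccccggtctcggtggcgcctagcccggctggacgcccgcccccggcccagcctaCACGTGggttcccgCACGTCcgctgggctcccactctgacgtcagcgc
Pfkl: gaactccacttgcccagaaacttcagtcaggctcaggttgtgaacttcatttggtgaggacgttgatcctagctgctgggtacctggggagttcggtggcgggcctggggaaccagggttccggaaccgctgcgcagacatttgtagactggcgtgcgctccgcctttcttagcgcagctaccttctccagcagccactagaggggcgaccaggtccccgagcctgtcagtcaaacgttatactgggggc
ACGTG was found at 2 places in the Hk2 window, both as GACGTG, at 1 in Slc3a2, at 5 in Ldha, which include the 2 orientations of each of 2 CACGTG sites, and at none in Pfkl. Windows were at hand for 31 of the 35 members. ACGTG was in at least 1 window of 14 of these 31 (45.2%) and of 18.5% of all 27025 genes with a window, CACGTG in 5 (16.1%) and 6.9%, and GACGTG in 8 (25.8%) and 5.9%. A match is a description of the letters and no evidence of binding. A window without ACGTG may hold another form of the core, which these counts leave out.

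No member passed an adjusted p of 0.05 in any comparison of 2 sites or in the test over all 4 sites. Of all 8057 measured genes, 0% were called between liver and blood, 0.819% between lung and blood and 10.8% between small intestine and blood. Between the organs the share was 0.285% (lung and liver), 0% (small intestine and liver) and 0.149% (small intestine and lung), and the test over the 4 sites called 0.757%. At an unadjusted p under 0.05, however, 16 of 32 members were lower in lung than in blood, beside 18.3% of all genes, and 6 of 32 were lower in small intestine, beside 28.1% of all genes. None was higher at that level in either organ. Liver gave 0 of 32 in either direction. The lung count rested in part on single arrays: without lung array 4 it was 6 of 32, beside 9% of all genes, and without blood array 3 it was 9 of 32, beside 12.7% of all genes.

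The median member lay at -0.62 in lung minus blood, where the median of all genes was -0.30, at -0.35 in small intestine minus blood, where that of all genes was -0.36, and at -0.06 in liver minus blood, where that of all genes was 0.05. The lung median of the members thus lay below that of all genes, and the small intestine median lay beside it. With the 2 arrays in doubt left out, the medians of members and of all genes were -0.37 and -0.42 in small intestine and -0.08 and 0.04 in liver. In lung 28 of 32 were below blood by any amount (65% of all genes), in small intestine 28 of 32 (64.7% of all genes) and in liver 18 of 32 (44.4% of all genes). The lung held the lowest of the 4 site means for 17 of 32 members, beside 26.3% of all genes, and the small intestine for 12 of 32, beside 41.6% of all genes. Scaling on the common probes, those above background throughout the 20 arrays, moved the lung medians to -0.80 for members and -0.48 for all genes, and those of small intestine to -0.31 for both. No overlap with the blood arrays was seen for 2 of 32 members in lung, Pdk1 and Slc7a1 (6.01% of all genes), and for 0 of 32 in small intestine (7.81% of all genes). The share of all genes without overlap was not counted against liver, so statements of this kind about liver below describe single genes only.

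**Figure D2:**
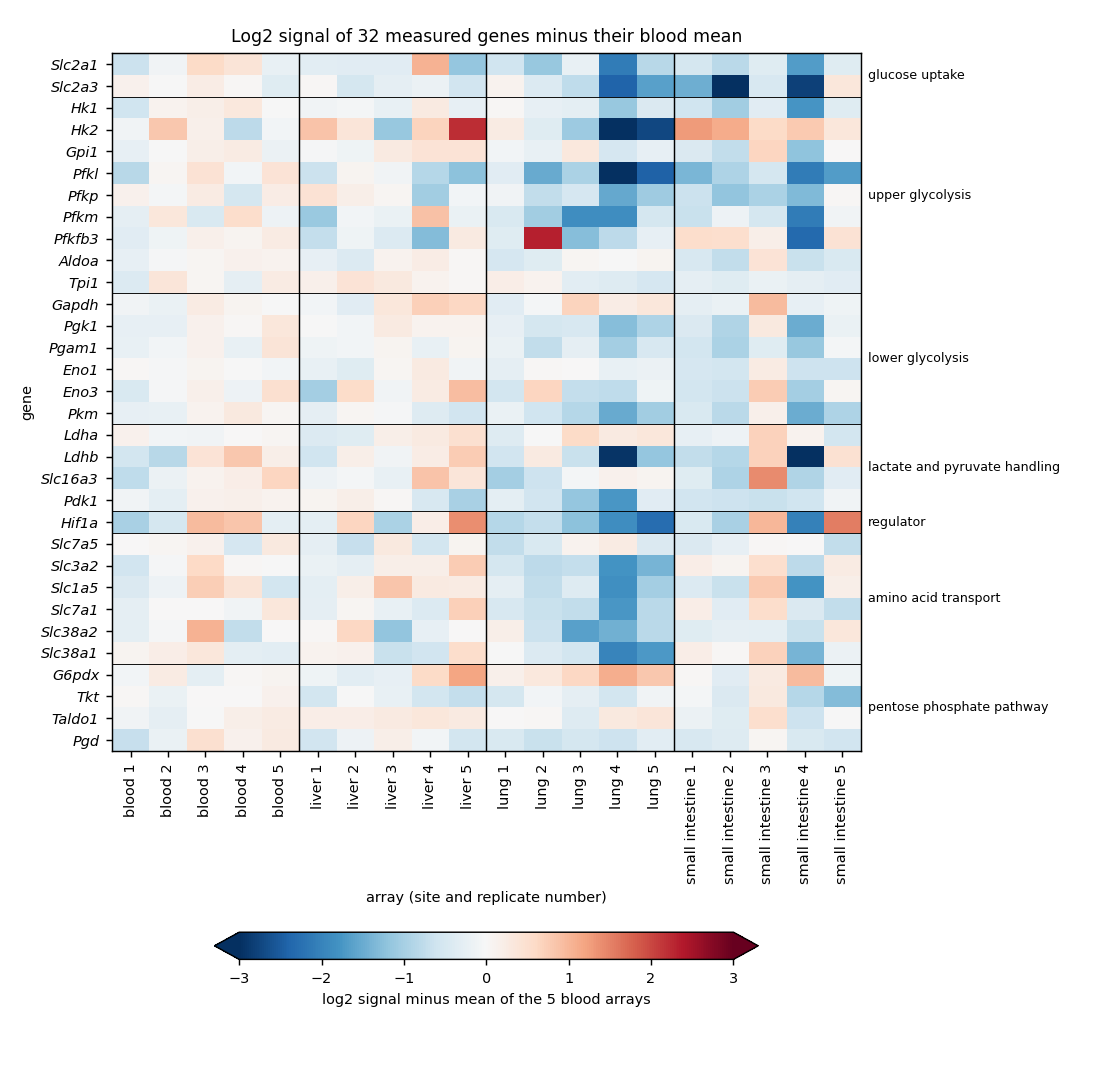
Log2 signal of the 32 measured genes (rows, grouped by role) on the 20 arrays (columns, by site and replicate), as the difference from the gene's mean over the 5 blood arrays; blue is lower and red is higher, with colours ending at 3 in either direction. Lung arrays 4 and 5 and small intestine array 4 are lower for most genes, and Hk2 is at or above its blood mean on all small intestine arrays.

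The 2 glucose transporters were below blood in both lung and small intestine, with wide spread. Slc2a3, the high-affinity carrier, was 1.91, 1.77, 2.02, 1.82 and 1.44 on blood arrays 1 to 5 and 1.82, 1.26, 1.52, 1.61 and 1.21 on the liver arrays. It was 1.89, 1.39, 1.02, -0.61 and 0.16 on the lung arrays and 0.32, -1.80, 1.30, -1.02 and 2.13 on those of small intestine. Blood and liver thus lay close together, while small intestine arrays 1 to 4 lay below every blood array and the array labelled small intestine 5 lay above them all. Small intestine minus blood was -1.60 ± 0.56 (SE, adjusted p = 0.0657), and lung minus blood -1.02 ± 0.56 (adjusted p = 0.19). Slc2a3 was not well above background on lung array 4 and on small intestine arrays 2 and 4. With the 2 arrays in doubt left out, it fell in small intestine against blood (-2.09 ± 0.52, adjusted p = 0.01) and against liver (-1.85 ± 0.55, adjusted p = 0.0319), where 2 of the 4 small intestine arrays left were above background, so that the sizes of these differences are uncertain. Liver minus blood was -0.30 ± 0.56 with all arrays and -0.24 ± 0.52 without the 2. Slc2a1, the carrier that activated T cells place on their surface, was 1.75, 2.29, 2.97, 2.78 and 2.18 in blood and 2.08, 2.05, 2.05, 3.43 and 1.23 in liver. The lung arrays gave 1.79, 1.26, 2.17, 0.28 and 1.56 and the small intestine arrays 1.87, 1.59, 2.04, 0.70 and 2.02. Values at all 4 sites overlapped, with the lowest on lung array 4 and small intestine array 4. The difference from blood was -0.98 ± 0.40 in lung (adjusted p = 0.125) and -0.75 ± 0.40 in small intestine (adjusted p = 0.188; -0.84 ± 0.40 and 0.107 without the 2 arrays in doubt). In liver it was -0.23 ± 0.40, and 0.01 ± 0.40 without them.

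The 2 hexokinases, which add the phosphate that keeps glucose in the cell, had different orders of site means. Hk2, the isozyme induced on T cell activation, was 1.36, 2.29, 1.64, 0.69 and 1.40 in blood and 2.32, 1.84, 0.34, 2.15 and 3.68 in liver. It was 1.72, 1.10, 0.38, -2.06 and -1.25 in lung, where arrays 4 and 5 were not well above background, and 2.76, 2.58, 2.05, 2.27 and 1.81 in small intestine. Every small intestine array lay above every lung array, and the liver arrays spanned both. Small intestine minus lung was 2.32 ± 0.61, higher on 5 of 5 slides (adjusted p = 0.125), and its size is uncertain because 3 of the 5 lung arrays were above background. Without overlap and higher in small intestine than in lung was 1 of 32 members, Hk2, beside 0.385% of all genes. Against blood the difference was -1.50 ± 0.61 in lung (adjusted p = 0.126) and 0.82 ± 0.61 in small intestine, where it was higher on 5 of 5 slides (adjusted p = 0.303; 0.94 ± 0.61 and 0.214 without the 2 arrays in doubt). In liver it was 0.59 ± 0.61, and 0.19 ± 0.61 without them. With the 2 arrays in doubt left out, small intestine minus lung was 2.44 ± 0.61 (adjusted p = 0.0415), and Hk2 was the 1 of 32 members called, beside 2.63% of all genes. That call was lost when the probes above background on all remaining arrays also set the scale (smallest adjusted p of any member 0.0704). Hk1, the constitutive isozyme, was 4.27, 4.97, 5.04, 5.16 and 4.84 in blood and 4.75, 4.81, 4.64, 5.13 and 4.60 in liver. On the lung arrays it was 4.88, 4.60, 4.57, 3.73 and 4.41, and on those of small intestine 4.27, 3.82, 4.52, 3.08 and 4.50. The small intestine arrays lay below every liver array, with array 4 the lowest, and overlapped blood array 1 alone among the blood arrays. Small intestine minus blood was -0.82 ± 0.28 (adjusted p = 0.0605), and -0.93 ± 0.30 without the 2 arrays in doubt (adjusted p = 0.0294); liver minus blood was -0.07 ± 0.28 and -0.03 ± 0.30.

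The 3 phosphofructokinase subunits were below blood in both lung and small intestine. Pfkl, the liver-type subunit, was 1.02, 1.91, 2.29, 1.76 and 2.27 in blood and 1.21, 1.92, 1.75, 1.00 and 0.62 in liver. It was 1.50, 0.34, 0.91, -1.33 and -0.56 in lung and 0.48, 0.93, 1.33, -0.24 and 0.17 in small intestine. Lung arrays 2 to 5 lay below every blood array and lung 1 did not; lung 4 was not well above background. Lung minus blood was -1.68 ± 0.45 (adjusted p = 0.0768), the largest among the members, and small intestine minus blood was -1.32 ± 0.45, lower on 5 of 5 slides (adjusted p = 0.0587). Liver minus blood was -0.55 ± 0.45 (adjusted p = 0.997). Without the 2 arrays in doubt the difference from blood was -1.23 ± 0.48 in small intestine (adjusted p = 0.0616) and -0.38 ± 0.48 in liver. With the slide as a block Pfkl passed in both organs, at an adjusted p of 0.0426 in lung, where it was the 1 member called beside 1.41% of all genes, and of 0.0348 in small intestine. In small intestine the block called 3 of 32 members, Pfkl, Pfkp and Pgam1, beside 14.4% of all genes. Pfkp, the platelet-type subunit, had means of 1.56 ± 0.32 in blood, then 1.47 ± 0.57 for liver, 0.75 ± 0.54 for small intestine and 0.78 ± 0.55 for lung (SD, n = 5), and was lower than blood on 5 of 5 slides in both lung and small intestine. Its small intestine difference from blood was -0.82, and -1.03 ± 0.32 without the 2 arrays in doubt (adjusted p = 0.0272). Pfkm, the muscle-type subunit, was well above background on 4 blood arrays and on no lung array. By the bound its lung mean was at least 1.17-fold lower than that of blood (adjusted p = 0.124), a difference that was not called.

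Pfkfb3, which makes the activator of phosphofructokinase, stood apart by single arrays. It was 1.60, 1.83, 2.10, 2.02 and 2.19 in blood and 1.23, 1.82, 1.53, 0.65 and 2.21 in liver. The lung arrays gave 1.58, 4.29, 0.68, 1.15 and 1.69, and those of small intestine 2.48, 2.46, 2.11, -0.39 and 2.38. Lung array 2 was far above and small intestine array 4 far below the others of their site. Liver minus blood was -0.46 ± 0.58 (adjusted p = 0.997), and the differences from blood were -0.07 ± 0.58 in lung and -0.14 ± 0.58 in small intestine, where array 4 was not well above background. They became -0.64 ± 0.62 in liver and -0.28 ± 0.62 in small intestine without the 2 arrays in doubt. The other measured members of the upper steps, Gpi1, Aldoa and Tpi1, differed from blood by -0.39 to 0.20 over the 3 organs, and by -0.43 to 0.24 in liver and small intestine without the 2 arrays in doubt. Tpi1, the triose phosphate isomerase, was between 5.18 and 5.33 on the small intestine arrays, all below the lowest liver value of 5.58. Aldoc, a further aldolase, was well above background only on lung arrays 4 and 5, at 1.55 and 1.58, while the other 18 arrays lay between -3.40 and -1.45; it was not measured by the filter.

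In the lower steps of glycolysis the glyceraldehyde-phosphate dehydrogenase Gapdh was nearly level. It was 6.89, 6.79, 7.23, 7.06 and 6.98 in blood and 6.91, 6.64, 7.32, 7.70 and 7.62 in liver. It was 6.64, 6.93, 7.66, 7.22 and 7.34 in lung and 6.71, 6.79, 7.93, 6.75 and 6.85 in small intestine. Small intestine array 3 was the highest of all, and the ranges of the 4 sites overlapped. The difference from blood was 0.25 ± 0.27 in liver, 0.02 ± 0.27 in small intestine and 0.17 ± 0.27 in lung, and the liver and lung signs turned under some other scalings. It was 0.15 ± 0.29 in liver and 0.06 ± 0.29 in small intestine without the 2 arrays in doubt. Mouse Gapdh has many near-identical pseudogene copies, so its probes are uncertain. The other 6 measured probes gave lung minus blood differences of -1.16 to -0.41 and small intestine minus blood of -1.86 to -0.45, below that of the brightest probe. Pkm, the pyruvate kinase, had means of 5.66 ± 0.22 in blood, then 5.42 ± 0.26 for liver, 4.96 ± 0.60 for small intestine and 4.82 ± 0.49 for lung (SD, n = 5). Pgk1, which makes ATP, had 5.61 ± 0.25, 5.69 ± 0.13, 5.07 ± 0.68 and 4.92 ± 0.41 in the same order, and Pgam1, the phosphoglycerate mutase, 4.52 ± 0.27, 4.47 ± 0.13, 3.91 ± 0.43 and 3.98 ± 0.34. For these 3 genes the lung differences from blood were -0.84, -0.69 and -0.54 and those of small intestine -0.70, -0.55 and -0.61, with adjusted p between 0.0803 and 0.177. Without the 2 arrays in doubt the small intestine differences were -0.65, -0.63 and -0.75 (adjusted p = 0.0996, 0.107 and 0.0255), and Pgam1 fell. The enolases Eno1 and Eno3 differed from blood by -0.41 to 0.12 over the 3 organs, and by -0.37 to -0.06 in liver and small intestine without the 2 arrays.

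Ldha, which turns pyruvate into lactate, had nearly equal means, between 7.30 and 7.49. It was 7.46, 7.26, 7.23, 7.34 and 7.39 in blood and 6.92, 6.97, 7.52, 7.60 and 7.82 in liver. It was 6.96, 7.33, 7.90, 7.60 and 7.67 in lung and 7.10, 7.17, 8.02, 7.44 and 6.79 in small intestine. Blood varied least and lay inside the range of each organ. The difference from blood was 0.16 ± 0.25 in lung (adjusted p = 0.631), a sign that turned under other scalings, -0.03 ± 0.25 in small intestine and 0.03 ± 0.25 in liver. The latter 2 were 0.10 ± 0.25 and -0.08 ± 0.25, each with the sign turned, without the 2 arrays in doubt. The dimmer of its 2 measured probes gave -1.12 in lung and -0.75 in small intestine. Of 5 members with several measured probes, all probes had the same direction for 3 in lung and for 4 in small intestine. Pdk1, which holds pyruvate back from the mitochondria, had means of -0.12 ± 0.19 in blood, then -0.35 ± 0.49 for liver, -0.63 ± 0.23 for small intestine and -0.94 ± 0.62 for lung (SD, n = 5). Its 5 lung values all lay below the lowest blood value of -0.40 (lung minus blood -0.82 ± 0.28, adjusted p = 0.124), but it was well above background on 2 lung and 4 blood arrays and on 1 of small intestine. Small intestine minus blood was -0.52 ± 0.28, and -0.62 ± 0.27 without the 2 arrays in doubt (adjusted p = 0.0847). Ldhb and Slc16a3, the lactate exporter, differed from blood by -1.02 ± 0.65 and -0.30 ± 0.39 in lung and by -0.81 ± 0.65 and -0.23 ± 0.39 in small intestine (-1.12 ± 0.68 and -0.20 ± 0.43 without the 2 arrays). Slc16a1, another lactate carrier, was well above background on 0 of 20 arrays.

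**Figure D3:**
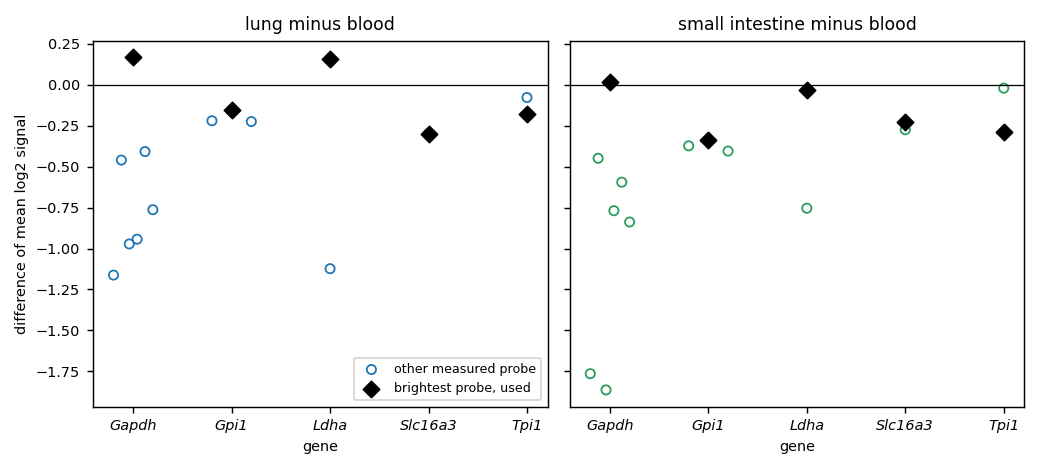
Difference of mean log2 signal from blood in lung (left) and small intestine (right) for the 5 genes with several measured probes; the diamond is the brightest probe, which stands for the gene, and each circle is another measured probe. The other probes of Gapdh and Ldha lie below the brightest one in both organs, while those of Gpi1 and Slc16a3 lie close to it.

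Hif1a, the oxygen-sensing regulator, was dim throughout. It was -1.12, -0.67, 0.80, 0.67 and -0.44 in blood and -0.43, 0.50, -1.10, 0.05 and 1.24 in liver. It was -1.02, -0.87, -1.39, -2.00 and -2.43 in lung and -0.62, -1.11, 0.85, -2.17 and 1.39 in small intestine. It was well above background on 3 blood, 4 liver and 2 small intestine arrays and on no lung array. By the bound, the lung mean was at least 1.3-fold below that of blood (adjusted p = 0.129) and at least 1.49-fold below that of liver (adjusted p = 0.274). Neither difference was called, and lung arrays 1 and 2 lay within the blood and liver ranges. The liver bound includes the array labelled liver 5, at 1.24, and is not given without it. Measured means were -1.54 in lung, -0.15 in blood and 0.05 in liver. The arrays labelled liver 5 and small intestine 5 were the highest of their sites, and small intestine minus blood was -0.18 ± 0.59 (adjusted p = 0.813). Without them it was -0.61 ± 0.54 (adjusted p = 0.352), and the adjusted p of lung against liver was 0.15.

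The amino acid carriers were lower than blood in lung for 6 of 6 members, with a median difference of -0.88, and close to blood in small intestine, with a median of -0.21; the medians of all genes were -0.30 and -0.36. Slc3a2, the chain that carries Slc7a5 and its relatives to the surface, was 4.35, 4.88, 5.52, 4.96 and 4.90 in blood and 4.71, 4.66, 5.10, 5.11 and 5.68 in liver. It was 4.38, 4.14, 4.20, 3.12 and 3.52 in lung and 5.11, 4.99, 5.42, 4.14 and 5.18 in small intestine. Every lung array lay below every liver array, lung arrays 2 to 5 lay below every blood array, and small intestine array 4 alone among its site reached into the lung range. The lung difference was -1.05 ± 0.30 from blood (adjusted p = 0.0958) and -1.18 ± 0.30 from liver, lower on 5 of 5 slides (adjusted p = 0.115). Small intestine minus lung was 1.10 ± 0.30, higher on 5 of 5 slides (adjusted p = 0.138), and small intestine minus blood 0.05 ± 0.30, whose sign turned with median scaling, with normexp and, at -0.004 ± 0.31, without the 2 arrays in doubt. Without these, lung minus liver was -1.02 ± 0.31 (adjusted p = 0.15) and small intestine minus lung 1.04 ± 0.31 (adjusted p = 0.0944). Slc7a1, the arginine and lysine carrier, was 4.34, 4.60, 4.61, 4.49 and 4.95 in blood and 4.32, 4.65, 4.37, 4.18 and 5.32 in liver. It was 4.11, 3.93, 3.86, 2.84 and 3.79 in lung and 4.79, 4.25, 5.11, 4.17 and 3.87 in small intestine. All 5 lung values lay below every blood and every liver value. The difference from blood was -0.89 ± 0.29 in lung (adjusted p = 0.12), lower on 5 of 5 slides, and -0.16 ± 0.29 in small intestine, and small intestine minus lung was 0.73 ± 0.29 (adjusted p = 0.422). The last 2 were -0.02 ± 0.27 and 0.87 ± 0.27 (adjusted p = 0.106) without the 2 arrays in doubt.

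Slc7a5, the leucine carrier that pairs with Slc3a2, lay closer to blood in lung than its partner. It was 0.67, 0.72, 0.79, 0.15 and 0.94 in blood and 0.40, -0.03, 0.94, 0.12 and 0.73 in liver. It was -0.09, 0.19, 0.77, 0.89 and 0.23 in lung and 0.22, 0.40, 0.70, 0.67 and -0.08 in small intestine. The sites overlapped fully, with differences from blood of -0.26 ± 0.25 in lung and -0.28 ± 0.25 in small intestine (adjusted p = 0.435 and 0.392). Leaving out the 2 arrays in doubt gave -0.16 ± 0.26 in small intestine and -0.30 ± 0.26 in liver. The glutamine carriers Slc1a5, Slc38a1 and Slc38a2 differed from blood by -0.85 ± 0.41, -0.94 ± 0.40 and -0.87 ± 0.38 in lung (adjusted p = 0.146, 0.129 and 0.132). In small intestine they differed by -0.38, -0.12 and -0.26, and by -0.52, -0.11 and -0.41 without the 2 arrays. Tfrc, the transferrin receptor through which iron enters, was well above background on 0 of 20 arrays with each of its probes.

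The pentose phosphate genes were the 1 role whose lung median, -0.12, lay above that of all genes. G6pdx, the enzyme that opens the branch, was 3.92, 4.24, 3.69, 4.02 and 4.08 in blood and 3.86, 3.68, 3.74, 4.57 and 5.18 in liver. It was 4.14, 4.32, 4.62, 5.07 and 4.81 in lung and 4.03, 3.66, 4.26, 4.95 and 3.87 in small intestine. Lung arrays 2 to 5 lay above every blood array, and so did the arrays labelled liver 4 and 5 and small intestine 3 and 4. Lung minus blood was 0.60 ± 0.30, higher on 5 of 5 slides (adjusted p = 0.158). The difference was 0.16 ± 0.30 in small intestine and 0.21 ± 0.30 in liver, and 0.23 ± 0.28 and -0.03 ± 0.28 without the 2 arrays in doubt. Taldo1, the transaldolase, was 5.16, 5.00, 5.27, 5.44 and 5.51 in blood and 5.48, 5.48, 5.55, 5.62 and 5.55 in liver. It was 5.29, 5.30, 4.88, 5.58 and 5.63 in lung and 5.10, 4.92, 5.77, 4.64 and 5.26 in small intestine. The liver arrays lay in a narrow band at and above the top of the blood range, and liver minus blood was 0.26 ± 0.22, higher on 5 of 5 slides (adjusted p = 0.997), and 0.26 ± 0.24 without the 2 arrays. Tkt, the transketolase, was 4.76, 4.52, 4.72, 4.73 and 4.85 in blood and 4.16, 4.69, 4.49, 4.17 and 3.99 in liver. It was 4.19, 4.64, 4.43, 4.17 and 4.61 in lung and 4.66, 4.28, 5.02, 3.87 and 3.41 in small intestine. Blood varied least, and the array labelled small intestine 5 was the lowest of all. Its difference from blood was -0.41 ± 0.26 in liver (adjusted p = 0.997), -0.47 ± 0.26 in small intestine and -0.30 ± 0.26 in lung. Leaving out the 2 arrays gave -0.34 ± 0.23 in liver and -0.26 ± 0.23 in small intestine. Pgd, which makes NADPH in the branch, differed from blood by -0.52 ± 0.23 in lung (adjusted p = 0.134).

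**Figure D4:**
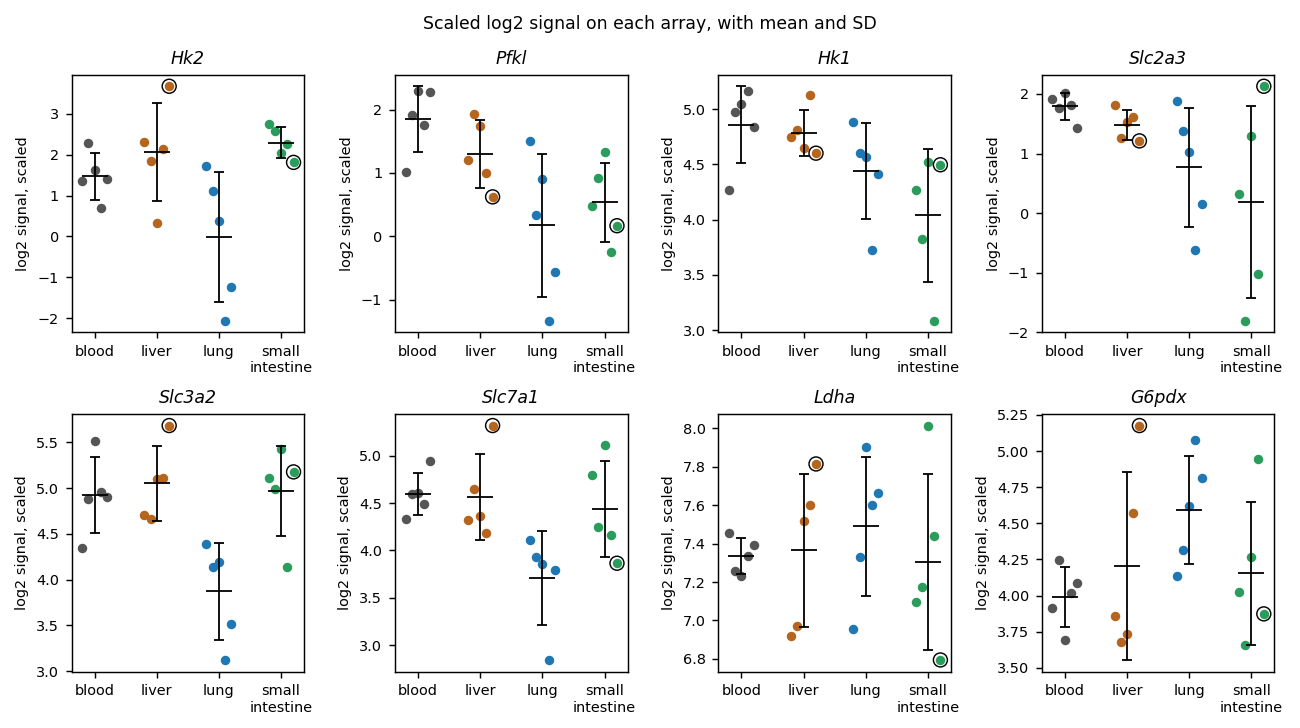
Log2 signal of 8 genes on each array by site, scaled to the array's 75th percentile; dots are arrays, bars are the mean and SD of 5 arrays, and ringed dots are the arrays labelled liver 5 and small intestine 5. The 5 small intestine values of Hk2 lie above the 5 lung values, the lung values of Slc7a1 lie below all blood values, and those of Ldha overlap at all sites.

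**Figure D5:**
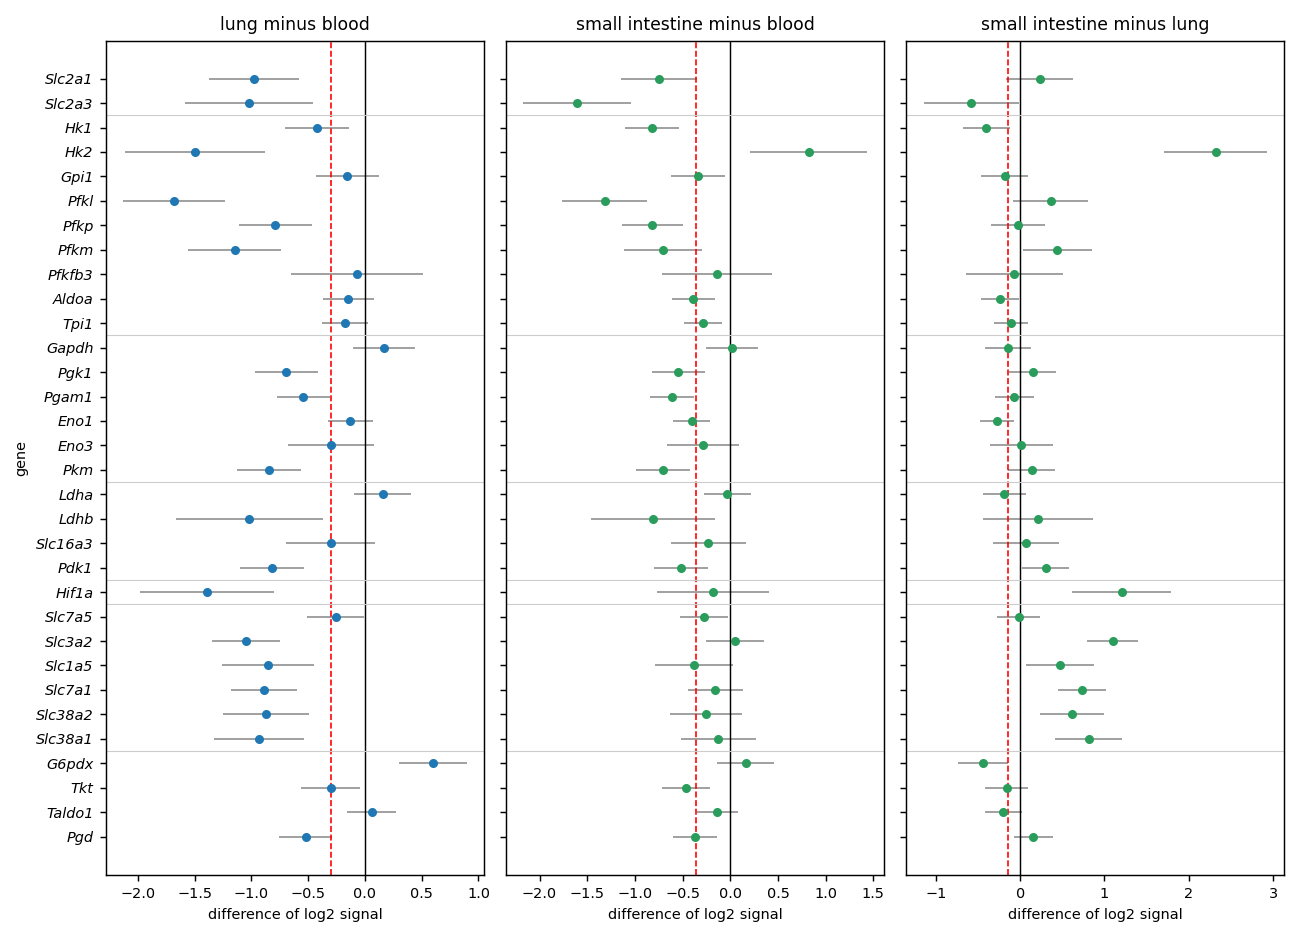
Difference of log2 signal with its standard error for the 32 measured genes, for lung minus blood (left), small intestine minus blood (middle) and small intestine minus lung (right); the dashed line is the median difference of all 8057 genes. The amino acid carriers other than Slc7a5 lie left of that line in lung minus blood. All amino acid carriers lie right of the line in small intestine minus lung, where Hk2 has the largest difference, 2.32.

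Single arrays weighed on these counts. Of the 32 members, 11, 14, 17, 23 and 20 lay below every blood array on lung arrays 1 to 5, beside 21.3%, 33.8%, 30.5%, 51.3% and 34.7% of all genes. Lung 3 had 17 members below. Its alveolar macrophage genes were at the level of blood, but its erythroid genes were the highest of all arrays. Lung 4, with the highest macrophage signal and the lowest CD8 T cell genes of its site, had 23. What part these signals have in the lung differences was not tested. Without lung array 1, 6 of 32 members fell against blood (Hk2, Pfkl, Pkm, Pdk1, Slc3a2 and Slc7a1, adjusted p between 0.0255 and 0.0488), beside 10.5% of all genes. In small intestine 14, 22, 5, 25 and 8 members lay below every blood array on arrays 1 to 5, beside 41%, 51%, 22.2%, 58.6% and 27.6% of all genes. The CD8 T cell genes were at 3.87, 3.33, 4.88, 3.12 and 4.61 on these arrays, so that the arrays with the most members below blood were those with the least T cell signal and the most Paneth cell signal. What part this has in the small intestine differences was not tested. Without small intestine array 3, 8 of 32 members fell against blood in small intestine, beside 23.8% of all genes. With the 2 arrays in doubt left out, 4 of 32 fell against blood (Slc2a3, Hk1, Pfkp and Pgam1), beside 26.3% of all genes, and 1 of 32 against liver, beside 16.3% of all genes. Over the 4 sites 5 of 32 then differed (Hk2, Pfkl, Slc2a3, Slc3a2 and Slc7a1), beside 18.8% of all genes.

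Other genes of the same metabolism, 106 in all, were called in small intestine against blood alone when all arrays were used: 13 of 106 fell there, beside 10.8% of all genes. These calls depended on single arrays and on the scale. Without small intestine array 2, 0 of the 13 were called by limma, as was none of all 8057 genes, with an unadjusted p under 0.05 for 13 of the 13 and for 1934 genes. Scaled on the common probes, 0 of the 13 passed, with 19 genes called in all. Without the 2 arrays in doubt, 27 of 106 were called (22 lower, 5 higher), among them all 13, beside 26.3% of all genes. With all arrays and without these 2, the share called of the 106 lay near that of all genes.

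The serine and one-carbon enzymes, which feed nucleotide synthesis, had 3 of 8 measured genes called, Psph at -1.06 ± 0.33, Shmt2 at -0.98 ± 0.24 and Mthfd1l at -1.04 ± 0.32 (adjusted p = 0.044, 0.0212 and 0.0428), and the list's median was -0.97, where that of all genes was -0.36. Without the 2 arrays in doubt 5 of 8 were called, with medians of -0.97 and -0.42. Psph, Shmt2 and Mthfd1l were then at -1.15 ± 0.35, -0.91 ± 0.24 and -1.18 ± 0.33. Of 17 measured enzymes of the citric acid cycle 2 were called, a share near that of all genes, Dlst at -0.74 ± 0.20 and Fh1 at -0.79 ± 0.25, and the list's median was -0.45. The count was 3 of 17 without the 2 arrays, with Dlst at -0.73 ± 0.22 and Fh1 at -0.90 ± 0.26. These 5 genes were well above background on all 10 arrays compared.

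Of 21 measured regulators of nutrient and oxygen sensing 4 were called, beside 10.8% of all genes, and the list's median was -0.66. Without the 2 arrays 6 of 21 were called, a share near the 26.3% of all genes. The 4 called with all arrays were Mlst8, a part of the mTOR kinase complexes, at -0.70 ± 0.20, and 3 others. These 3 genes were mostly not above background in small intestine, so that the sizes of their differences are uncertain. Irf4, a factor induced by T cell receptor signals, was at -2.31 ± 0.67, with 2 of 5 small intestine arrays above background. Of these 2, 1 was the array labelled small intestine 5, and without the 2 arrays in doubt Irf4 was at -2.95 ± 0.57. Txnip, which restrains glucose uptake, was at -1.53 ± 0.45, and Rptor, a part of the mTORC1 kinase, at -1.44 ± 0.38, each with 1 of 5 above background. For both genes that was the array labelled small intestine 5, so without the arrays in doubt no small intestine array was above background. Of 4 other measured pentose phosphate enzymes 2 were called, with and without the 2 arrays, H6pd at -1.07 ± 0.30 and Rpia at -0.94 ± 0.27. Rpia was above background on 3 blood arrays and on 1 of small intestine, again the array labelled small intestine 5. Minpp1, at -1.56 ± 0.45 with 3 of 5 small intestine arrays above background, was the 1 called of 10 further glycolytic and side enzymes, a share near that of all genes. Without the 2 arrays in doubt 2 of these 10 were called lower and 2 higher. Pdp2, which activates pyruvate dehydrogenase, was the 1 called of 6 genes of pyruvate entry into mitochondria, at -1.63 ± 0.52 with 1 of 5 above background, the array labelled small intestine 5. Without the 2 arrays in doubt 2 of these 6 were called, both lower. With all arrays none was called among 7 other sugar and lactate carriers, 6 other amino acid carriers, 9 other Hif1a target genes, 11 genes of the amino acid stress response and 7 other iron genes. Without the 2 arrays in doubt, small intestine against blood had 2 of the 7 sugar and lactate carriers called higher and 1 lower. It also had 1 of the 9 Hif1a targets called lower and 1 of the 11 stress response genes higher, beside 26.3% of all genes called in either direction. The lung medians of the serine and one-carbon enzymes and of the sensing regulators were -0.72 and -0.56, and that of the other iron genes was 0.56, where that of all genes was -0.30.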

How the data were processed

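The scans were quantified by Feature Extraction, version 11.0.1.1 per the file headers and 10.7 (with Partek) per the submitters' processing notes. Its processed signal is the spot's linear intensity after background subtraction, per the file headers. The authors' deposited table of values holds log2 numbers; it matched quantile-normalized log2 signal with a median absolute difference of 6.31e-05, had a median of 8.05 and served as an alternative.

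The array's 75th percentile over spots that were neither controls nor non-uniform was subtracted from log2 signal (823.1 to 2845.2 on the linear scale). Probes were named through RefSeq accessions (27508 with 1 symbol, 11921 without). All 8057 genes entered a two-sided limma fit (3.58.1, R 4.3.3) of 1 term per site over 20 arrays, with 16 residual degrees of freedom; p-values were adjusted by Benjamini-Hochberg per comparison, at 0.05. For a site with no array well above background, the bound "at least N-fold" sets the brighter mean against the higher, on each dim array, of the probe's signal and the lowest signal well above background. The fit was tested on simulated independent normal values. The simulation held no other cells, slide effects or wrong labels, so how these move the calls was not tested by it. The members and lists were chosen with earlier results of these data known. Named in full were the 3 highest and 3 lowest differences from blood in each organ and 6 genes chosen by name, with the called genes of the other lists; Slc7a1, Pfkp, Pgam1, Pgk1, Pkm and Pdk1 were added after their values were seen. Each slide held the 4 arrays with 1 replicate number, per the file headers, so the slide is the block; the deviations of same-slide arrays correlated between -0.37 and 0.56, over 0.1 in 18 of 30 pairs. The number of arrays limits the precision. Background correction by normexp, planned on mean signals, was run on median signals, a choice made after the data were seen. Figures were drawn with matplotlib.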

Additional observations from a re-analysis of the deposited data

Results flagged for a closer look

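A gap test (Dixon, critical value 0.71 for 5 arrays) was applied to 14 members at each site, 56 groups of arrays in all, and chance alone sets apart about 5% of groups. It set apart 3 values. Pfkfb3 was 4.29 on the lung 2 array, where the other lung arrays lay between 0.68 and 1.69. Pfkfb3 was also -0.39 on the small intestine 4 array, where the other arrays of the site lay between 2.11 and 2.48. Gapdh was 7.93 on the small intestine 3 array, where the others lay between 6.71 and 6.85.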

How the results depend on the processing

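Of 21 member differences, 16 kept their direction under every alternative run and 5 did not. Gapdh in liver minus blood was -0.026 with quantile normalization and the deposited value table and -0.145 as the mean of its probes. Gapdh in lung minus blood was -0.016 when scaled on the common probes (well above background on every array), -0.017 when so scaled without the 2 arrays in doubt, -0.073 with quantile normalization and the deposited table, -0.18 with median scaling, -0.13 with normexp and -0.65 as the mean of its probes. Ldha in lung minus blood was -0.026, -0.027, -0.13, -0.19, -0.145 and -0.48 in the same order. In small intestine minus blood G6pdx was -0.07 with median scaling and -0.008 with normexp, and Slc3a2 was -0.18, -0.11 and, without the 2 arrays in doubt, -0.004. Leaving out 1 array gave G6pdx -0.035 to 0.286 and Slc3a2 -0.095 to 0.255 there.

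The count of members called was 0 in liver against blood and lung against liver throughout. In lung against blood it was 1 with the replicate block, beside 1.41% of all genes. The 2 arrays in doubt are those labelled liver 5 and small intestine 5. When they were left out and the common probes of the rest set the scale, it was 3, beside 6.59% of all genes. In small intestine against blood it was 1 with quantile normalization or the deposited table (6.14% of all genes), normexp (8.2%) or only the common probes (14.3%). It was 3 with the replicate block (14.4%), 4 without the 2 arrays (26.3%) and 3 with that and scaling on the rest (23.8%). Without the 2 arrays it was 1 in small intestine against liver, beside 16.3% of all genes (1 and 10.8% with scaling on the rest). Against lung it was 1, beside 2.63% (0 and 1.35% with scaling on the rest). Over the 4 sites it was 5, beside 18.8% (5 and 18.2% with scaling on the rest). The cause was not tested. Leaving out 1 array gave 0 to 6 in lung against blood (6 without lung 1, beside 10.5% of all genes). In small intestine against blood it gave 0 to 8. The count was 8 without small intestine 3 (23.8% of all genes), 4 without small intestine 5 (25.3%), 3 without lung 4 (14.8%), 2 without blood 1 (8.48%) and 1 without lung 1 (10.4%). In small intestine against liver it gave 0 to 1 (1 without small intestine 5, beside 10.2%). Over the 4 sites it gave 0 to 3 (3 without small intestine 5, beside 13.2%, and 1 without liver 5, beside 6.9%). The replicate block changed no other call. Signals near background, as for Hif1a, Pfkm and Pdk1, limit what can be seen.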
